A study of Mus musculus with 12 samples.

Results

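Gata6+Itga6− cells, keratinocytes of the upper hair follicle that carry the Gata6 reporter and have left the basal layer, were compared with CD34+ cells, which also have integrin alpha 6 and mark the bulge, the stem cell niche of the lower follicle. The comparison uses 6 of the 12 exon arrays of the study, 3 of each population. The samples were assigned to the sides by their labels alone: 'Tomato+/ITGA6- keratinocytes' on one side and 'CD34+/ITGA6+ keratinocytes' on the other. The comparison itself was chosen with earlier results of these data known. All cells came from the epidermis of female Gata6-mtomato mice, a fluorescent reporter line on a mixed C57BL6/CBA background, taken in telogen, when hair follicles rest; the donors were matched for age and sex, and no age or treatment is given. The labels call the 3 samples of a population biological replicates, without stating whether a sample is 1 mouse or a pool, so p-values measure the spread between these samples. Every population in the labels is described as basal, including the one sorted as negative for the basal integrin. The series design adds that CD34+ cells were negative for Gata6. The other 6 arrays, of basal Gata6+Itga6+ cells and of Itga6+ cells with neither marker (here called remaining basal cells), enter through the shared estimate of spread and in the last comparison.

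The upper follicle opens to the skin surface through a duct, whose inner cells leave the basal layer, stratify and cornify much like the epidermis between follicles. Gata6 is a zinc-finger transcription factor of this duct lineage, and Krt79 is a keratin of its suprabasal cells. The bulge lies further down and holds slow-cycling cells that are kept quiet in telogen by growth factor signals and that rebuild the follicle when growth resumes. Integrin alpha 6 pairs with integrin beta 4 in hemidesmosomes, which fix basal cells to the basement membrane.

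Before the values, the proximal promoters of 4 of the genes that differed most are shown, because each belongs to a gene high in 1 population and at or near silence in the other. They are the 2 largest higher genes, Sprr1a and Defb6, and the 2 largest lower genes that have exactly 1 start listed in RefSeq, S100a4 and Krt24. Each run holds the 250 bases before the start in RefSeq's annotation of GRCm38.p6, 5′ to 3′ on the gene's strand. They lie at chr3:92485882-92486131 on the minus strand for Sprr1a, chr8:19225228-19225477 on the plus strand for Defb6, chr3:90603520-90603769 on the plus strand for S100a4 and chr11:99285263-99285512 on the minus strand for Krt24. Capitals mark matches to the letters of the AP-1 or GATA motifs.
Sprr1a: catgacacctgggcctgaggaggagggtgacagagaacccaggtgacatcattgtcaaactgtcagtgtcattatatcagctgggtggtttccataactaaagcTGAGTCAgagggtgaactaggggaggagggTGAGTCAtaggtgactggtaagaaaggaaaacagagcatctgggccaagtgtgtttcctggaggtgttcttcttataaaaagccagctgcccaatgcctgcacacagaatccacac
Defb6: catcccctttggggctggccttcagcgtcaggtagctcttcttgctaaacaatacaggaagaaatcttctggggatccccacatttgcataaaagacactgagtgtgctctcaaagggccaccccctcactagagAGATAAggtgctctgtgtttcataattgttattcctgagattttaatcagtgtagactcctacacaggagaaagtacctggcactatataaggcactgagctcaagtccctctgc
S100a4: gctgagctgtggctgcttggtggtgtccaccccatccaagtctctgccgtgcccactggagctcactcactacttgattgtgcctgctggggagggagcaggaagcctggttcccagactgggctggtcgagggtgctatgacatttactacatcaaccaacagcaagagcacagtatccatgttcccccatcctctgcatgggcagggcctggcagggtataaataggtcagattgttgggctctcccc
Krt24: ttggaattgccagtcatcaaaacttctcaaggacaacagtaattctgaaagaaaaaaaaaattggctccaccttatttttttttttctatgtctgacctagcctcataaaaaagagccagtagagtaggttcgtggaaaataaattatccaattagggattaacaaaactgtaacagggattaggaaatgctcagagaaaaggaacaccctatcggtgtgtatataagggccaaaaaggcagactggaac
Sprr1a held 2 matches to AP-1 (TGANTCA) and Defb6 held 1 match to GATA (searched as the letters GATA after A or T and before A or G). S100a4 and Krt24 held no match to these, nor did any of the 4 to a GRHL motif (AACNGGTT) or a homeodomain motif (TAATTA), all searched on both strands. Among genes on the array with 1 listed start, a GATA match lay in 21.7% of 327 promoters of genes higher in Gata6+Itga6− cells, in 14.8% of 514 promoters of lower genes and in 23.1% of all 11843 promoters. An AP-1 match lay in 9.79%, 3.70% and 6.04% of the same sets. A GRHL match lay in 2.45%, 1.75% and 1.61%, and a homeodomain match in 3.67%, 1.56% and 4.18%. Over all 22862 listed promoters the shares were 27.6% for GATA, 6.96% for AP-1, 1.66% for GRHL and 5.04% for homeodomain. The median GC content was 58.8% for higher genes, 61.6% for lower genes and 56.8% for all, and its part in these shares was not tested. A match is a description of the letters in the window, not a binding site.

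Between the populations 1421 of 17853 genes differed at a limma adjusted p under 0.05, which is 7.96% of all genes. Of these, 574 were higher in Gata6+Itga6− cells (3.22%) and 847 were lower (4.74%), and 3239 genes had an unadjusted p under 0.05. A level here is the log2 of the array intensity plus 1, taken as the median of a gene's probe sets, and a log2 level of 2.42 served as the level of silent genes, read from olfactory and vomeronasal receptors. Where the lower mean lay under it, a fold is taken against it and written as at least. Genes over that level numbered 7483 in Gata6+Itga6− and 7919 in CD34+ cells, and among the 8721 over it in either population 15.3% were called. A change of at least 2-fold was seen in 450 higher and 628 lower genes, of at least 8-fold in 84 and 90, and of at least 16-fold in 30 and 33. No overlap between replicates of one and the other population was seen in 4047 genes, 22.7% of all, and among called genes only Plpp3, a lipid phosphatase, overlapped. Among the largest folds outside the gene groups below, Dapl1, a death-associated protein of the epidermis, was 35.9-fold higher, Ear2, a secreted ribonuclease with near-identical relatives, at least 41.9-fold higher on a single probe set, and Slc6a6, the taurine transporter, at least 67.3-fold lower. The call of Plpp3 ended without CD34+ replicate 2 or 3 or Gata6+Itga6− replicate 1 or 3 (adjusted p from 0.123 to 0.134).

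The counts in each direction depended on single arrays and on how array brightness was treated. Without Gata6+Itga6− replicate 1, 516 genes were higher and 564 lower. A fit with array brightness as a covariate gave 732 higher and 691 lower, and a further quantile normalization 799 and 828, against 574 and 847 as reported. The median log2 change over all genes was −0.02, and −0.10 over genes above the silent level. Arrays of a population correlated across genes at r = 0.948 to 0.949 for Gata6+Itga6− and 0.936 to 0.945 for CD34+ cells, while 1 array of each correlated at 0.828 to 0.846. Such correlations run over genes, which are not independent of each other. The upper quartile of intensity of the 12 arrays ran from 12.1 to 17.6.

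**Figure D1:**
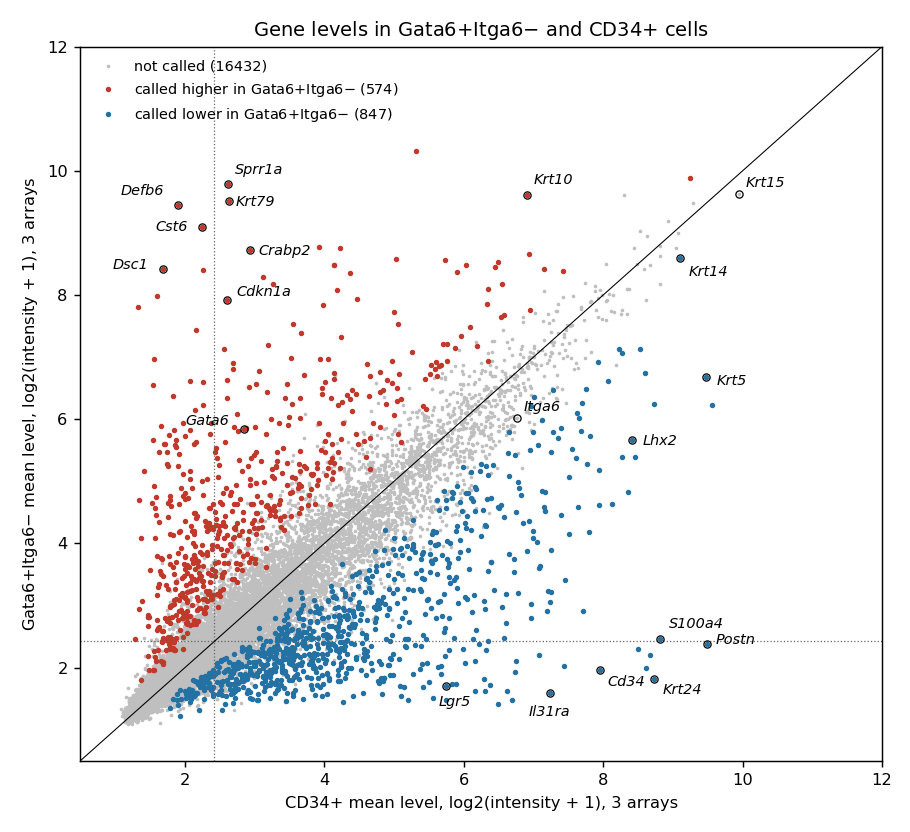
Mean log2(intensity + 1) of each gene in CD34+ (x axis) and Gata6+Itga6− cells (y axis), 3 arrays each. Red points are the 574 genes higher and blue points the 847 genes lower in Gata6+Itga6− cells at an adjusted p under 0.05, grey points all other genes, the diagonal marks equal levels, and the dotted lines mark the silent level of 2.42. Named genes such as Sprr1a and Defb6 lie far above the diagonal, Postn and S100a4 far below it, and Krt15 and Itga6 close to it.

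The genes of the sort followed the reporter and CD34 gates, but less so the integrin gate. Gata6 stood at log2 levels of 5.84, 5.89 and 5.80 on the Gata6+Itga6− arrays and at 2.61, 3.17 and 2.75 on the CD34+ arrays. Cd34 stood at 2.11, 1.75 and 2.02 against 7.94, 7.92 and 7.98. Itga6, whose protein was absent from one population by the gate, had 5.76, 6.36 and 5.94 against 6.37, 6.75 and 7.16. Gata6 and Cd34 thus did not overlap and were near or under the silent level on one side. The Itga6 transcript remained well over the silent level in Gata6+Itga6− cells and was not called (log2 change −0.74, adjusted p = 0.131). Since the cells were sorted on them, these genes check the labels and are not findings. In sorted cells measured in bulk, fewer cells of a kind and less RNA per cell cannot be told apart.

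Genes of the upper follicle and its junctional zone were mostly higher in Gata6+Itga6− cells. Of 18 measured members 10 rose, Gata6 included, 2 fell and 6 were not called, where 3.22% of all genes rose and 4.74% fell. This list and the lists below were chosen with earlier results of these data known. Their counts therefore describe the members and are no test of them, and each is to be read beside those shares. Krt79, Defb6, Cst6 and Aadac of this list are among the largest changes of the comparison. The median log2 change of the list was 2.32, against −0.02 over all genes. Krt79 reached 9.61, 9.53 and 9.43 on the Gata6+Itga6− arrays against 2.57, 2.70 and 2.62 on the CD34+ arrays. Defb6, a beta-defensin of the skin, stood at 9.25, 9.57 and 9.50 against 1.92, 2.05 and 1.73. Cst6, an inhibitor of cysteine proteases that acts in cornification, had 9.28, 8.94 and 9.04 against 2.05, 2.65 and 2.05. In each of these the populations were far apart, with tight replicates on the high side: Krt79 was 119-fold higher, Defb6 at least 130-fold and Cst6 at least 101-fold (limma adjusted p = 4.6e-08, 1.0e-07 and 4.5e-07). Aadac, an arylacetamide deacetylase, was at least 47.3-fold higher.

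The same list held markers of upper follicle stem cells with smaller differences. Plet1 rose from 5.73 ± 0.43 to 8.56 ± 0.26 (SD, n = 3), a 7.13-fold difference. Lrig1, a feedback inhibitor of EGF receptors that marks junctional zone stem cells, rose from 3.30 ± 0.50 to 5.23 ± 0.19, or 3.79-fold. Krt17, a keratin of follicle epithelium, was 6.62-fold higher and the kallikrein Klk10 at least 11.5-fold higher. The members that fell were Ackr4, a scavenger receptor for chemokines, by 15.7-fold, and Fst, an antagonist of activin, by 2.41-fold. Lgr6, a receptor of upper follicle stem cells, was not called (2.39 ± 0.24 against 3.31 ± 0.42, adjusted p = 0.139), and Fst was not called when each gene was read from its brightest probe set only (0.0563).

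**Figure D2:**
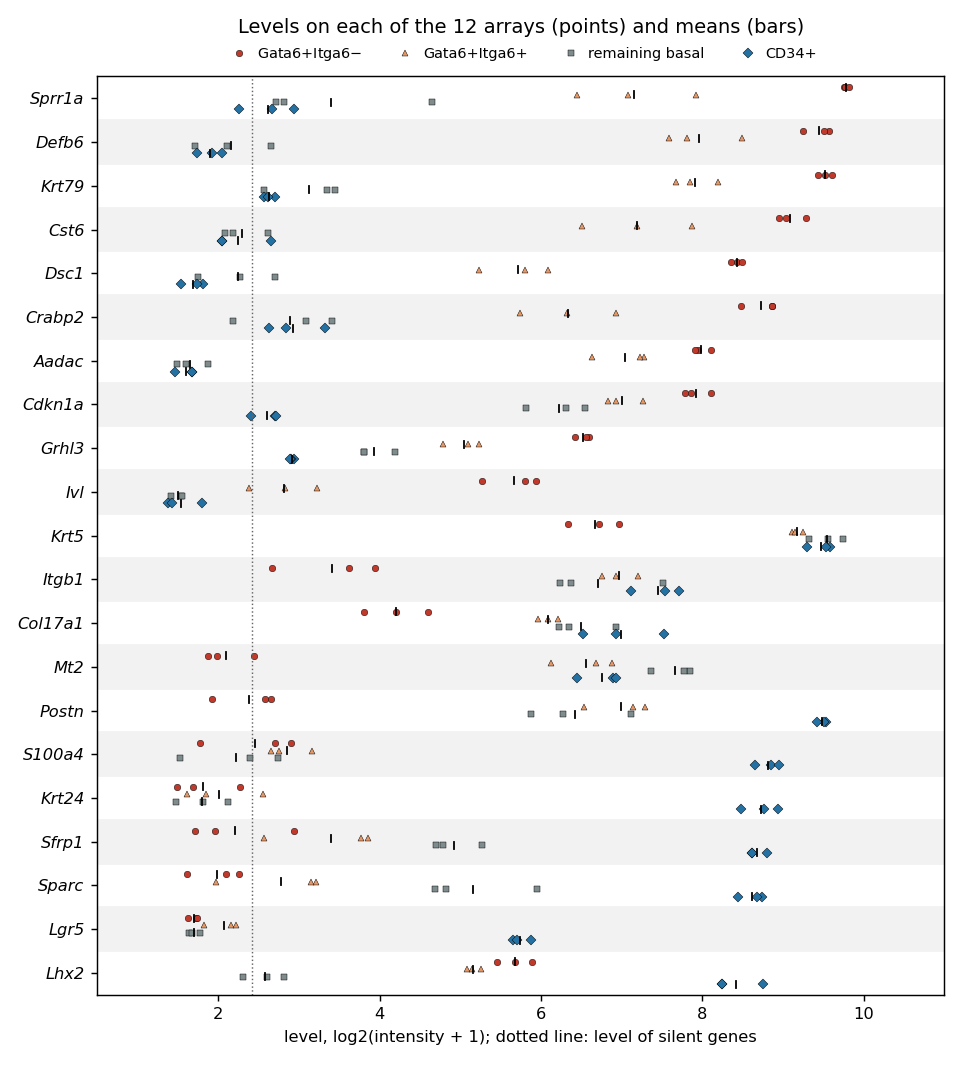
Log2(intensity + 1) of 21 genes on each of the 12 arrays (points, by population) with population means (bars), and the silent level of 2.42 as a dotted line. The Gata6+Itga6− and CD34+ arrays do not overlap in any gene drawn; for Sprr1a, Krt79 and Cst6 the Gata6+Itga6+ arrays lie between them, and for Krt5, Itgb1 and Col17a1 they lie with the CD34+ arrays.

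Genes of spinous and granular differentiation, the program of cells moving up from the basal layer, were higher in 18 of 34 measured members and lower in 1, with a median log2 change of 1.40. Krt10, the main keratin of suprabasal epidermis, stood at 9.57, 9.58 and 9.69 on the Gata6+Itga6− arrays and at 7.42, 6.90 and 6.39 on the CD34+ arrays. Its partner Krt1 was 3.34-fold higher (4.77 ± 0.12 against 3.03 ± 0.28). Krt77, another suprabasal keratin, was 11.7-fold higher and Krtdap, a secreted differentiation-associated protein, 15.0-fold. Krt1 was the exception in one respect: its level in remaining basal cells, 7.15, was above that of Gata6+Itga6− cells. Spink5, an inhibitor of the kallikreins that shed the outer layer, was 15.8-fold higher (8.35 ± 0.018 against 4.37 ± 0.23). Sbsn, the secreted protein suprabasin, did not pass the test (9.61 against 8.29 on average, adjusted p = 0.0578). Krt1 was not called with 16 in place of 1 added to the intensities (0.155), nor Krt10 with the brightest probe set only (0.0569).

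Desmosomes, the junctions that hold keratinocytes to each other, differed in their cadherins. Dsc1, a cadherin of differentiated layers, stood at 8.43, 8.35 and 8.49 against 1.81, 1.53 and 1.74, at least 64.0-fold higher. Dsg1a, its partner desmoglein, was 23.2-fold higher, the plakophilin Pkp1 7.51-fold and plakoglobin, Jup, 2.59-fold. Dsg3, the desmoglein of basal layers, was 3.66-fold lower (5.81 ± 0.31 against 7.68 ± 0.45). In Gata6+Itga6+ and remaining basal cells Dsg1a averaged 7.77 and 7.77, and Pkp1 6.60 and 6.38. Both genes were thus nearer there to Gata6+Itga6− than to CD34+ cells, as was Dsg3 with 6.68 and 6.43. Dsc1 averaged 5.71 and 2.24 and Jup 6.82 and 6.23, so that for these only Gata6+Itga6+ cells were nearer to Gata6+Itga6− cells. In all, 6 of 16 desmosome genes rose and 1 fell. Jup was not called with the brightest probe set only (0.0850).

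Tight and gap junction genes rose in 7 of 22 measured members and fell in none. Cldn4, a claudin of barrier-forming layers, had 5.83, 6.43 and 6.20 against 2.21, 2.36 and 1.88, so that it was at least 13.2-fold higher. Marveld2, or tricellulin, which seals corners where cells meet, was at least 5.96-fold higher and cingulin, Cgn, at least 4.03-fold. Occludin, Ocln, was at least 1.94-fold higher, but not with the brightest probe set only (adjusted p = 0.545). Cldn4 stood at 2.05 in Gata6+Itga6+ cells and 2.09 in remaining basal cells, under the silent level like the CD34+ arrays.

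Among cornified envelope genes, whose products are cross-linked into the outer shell of the dead cell, most were silent and a few differed very much. Sprr1a, a small proline-rich precursor, stood at 9.75, 9.77 and 9.82 against 2.26, 2.94 and 2.66, a 143-fold difference. Ivl, or involucrin, had 5.94, 5.80 and 5.27 against 1.38, 1.43 and 1.80, at least 9.49-fold higher. Sprr4 was at least 63.2-fold higher, on a single probe set. Of 34 measured members 5 rose and 1 fell, and the list's median log2 change was 0.13. The member that fell, Lce1e, a late envelope protein, was under the silent level in both populations (1.23 and 1.92), and its call ended without any 1 array other than CD34+ replicate 3 (adjusted p from 0.0513 to 0.0821). The cross-linking enzyme Tgm1, of the differentiation list, was at least 2.23-fold higher, whereas Tgm5, a related enzyme that the list of bulge genes holds, was 27.9-fold lower. Flg2, a filaggrin-like protein of the last living layer, was not called (adjusted p = 0.0633); it stood at 4.60 and 4.50 on replicates 1 and 3 of Gata6+Itga6− cells, and at 1.94 on replicate 2. Sprr, Defb and kallikrein genes have near-identical relatives, so that probes can respond to more than 1 of them.

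Genes for the lipids of the skin barrier rose in 13 of 32 measured members and fell in 1. Alox12e, an epidermal lipoxygenase, had 7.24, 7.61 and 7.47 against 2.14, 2.14 and 2.21, at least 32.4-fold higher. Abca12, which loads lipids into lamellar granules, was at least 8.99-fold higher and Acer1, an alkaline ceramidase, at least 8.27-fold. Sptlc3, a subunit of the enzyme that starts sphingolipid synthesis, was 6.45-fold and Elovl4, which makes very long fatty acids, 4.31-fold higher. Degs1, a ceramide desaturase, fell by 5.17-fold. Elovl4 changed sign and was not called with the brightest probe set only (adjusted p = 0.935), nor was it called in a fit of only the 6 arrays.

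Of 36 skin proteases and inhibitors, 11 rose and 2 fell. Klk7, a chymotrypsin-like kallikrein that cleaves desmosomes during shedding, stood at 6.42, 7.22 and 6.80 against 3.08, 2.53 and 2.45, or 17.5-fold higher. Klk5 was 3.26-fold and matriptase, St14, which activates such proteases, 4.43-fold higher. Ctsl, a lysosomal cysteine protease, fell by 9.05-fold and Serpinb8, a serpin, by 5.42-fold. The fit of only these 6 arrays did not call Klk5 (adjusted p = 0.0561), and the brightest probe set did not call St14 (0.0938).

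Transcription factors of epidermal differentiation were among the higher genes, 10 of 35 measured, Gata6 included, with 4 lower. Grhl3, a grainyhead factor needed for the barrier, stood at 6.42, 6.59 and 6.55 against 2.94, 2.91 and 2.89, which is 12.2-fold. Zfp750, which drives terminal differentiation, had 7.01, 7.78 and 6.63 against 2.33, 2.36 and 3.01, or 23.8-fold. Grhl1 was at least 18.0-fold and Ehf, an epithelial ETS factor, at least 5.06-fold higher. Every array of Gata6+Itga6− cells was above every CD34+ array for these 4. Prdm1, a transcriptional repressor, was at least 2.03-fold higher. Among those that fell, Maf was at least 6.63-fold lower and Trp63, the master factor of basal keratinocytes, 2.73-fold lower (6.62 ± 0.58 against 8.07 ± 0.24). Trp63 was not called without CD34+ replicate 3 (adjusted p = 0.0606), and neither it, Ehf nor Prdm1 with the brightest probe set only (0.23, 0.823 and 0.466), where Prdm1 changed sign.

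Cdkn1a, the p21 inhibitor of cyclin-dependent kinases, stood at 7.87, 8.11 and 7.78 on the Gata6+Itga6− arrays against 2.71, 2.71 and 2.41 on the CD34+ arrays, a 39.7-fold difference. Ccnd1, or cyclin D1, was 4.30-fold lower (3.27 ± 0.23 against 5.38 ± 0.40). These were the only called genes of 17 CDK inhibitors, D cyclins and their partners (11.8%, against 7.96% of all genes). Of 40 genes of the dividing cell, limma called none, and 4 had an unadjusted p under 0.05. Only 6 of the 40 lay over the silent level in 1 or both populations, so the lack of calls says little about the rest. Mki67 averaged 2.06 in Gata6+Itga6− and 1.94 in CD34+ cells, both under the silent level, against 4.82 in Gata6+Itga6+ cells and 3.76 in remaining basal cells.

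The bulge list was lower in Gata6+Itga6− cells in 22 of 29 measured members, Cd34 included, and none rose. Its median log2 change was −2.52. The list was chosen with earlier results of these data known and holds several of the largest lower genes. Its count is thus a description and not a test of bulge genes. Postn, a matricellular protein, had 2.58, 2.65 and 1.92 against 9.53, 9.51 and 9.43, at least 134-fold lower. S100a4, a calcium-binding protein, had 2.90, 1.77 and 2.70 against 8.85, 8.66 and 8.95, or 82.2-fold lower. Krt24, a keratin of the bulge, had 2.26, 1.68 and 1.49 against 8.48, 8.77 and 8.93, at least 78.9-fold lower. Each of the 3 was near or under the silent level on every Gata6+Itga6− array. Lgr5, a receptor that marks follicle stem cells, stood at 1.73, 1.74 and 1.63 against 5.88, 5.65 and 5.70, at least 9.97-fold lower. Il31ra, a chain of the interleukin 31 receptor, was at least 28.2-fold, the secreted Angptl7 at least 25.1-fold and Ccn2, a matrix-bound growth factor, 18.1-fold lower. With the brightest probe set only, Krt24 was not called (adjusted p = 0.882), nor was Lgr5 (0.433), which changed sign. Of 11 Krt24 probe sets, 10 were over 2-fold lower and 0 higher. Of 29 Lgr5 probe sets, 26 were over 2-fold lower and 1 higher.

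Of the bulge list 7 genes did not pass the test. Krt15, a keratin used to mark the bulge, stood at 9.67, 9.74 and 9.48 on the Gata6+Itga6− arrays and at 9.92, 9.95 and 9.96 on the CD34+ arrays, a log2 change of −0.31 (SE 0.11, adjusted p = 0.12). Cd200, a surface glycoprotein of bulge cells, had 7.37, 7.72 and 7.43 against 7.91, 7.21 and 7.45 and overlapped; it stood at 6.56 in Gata6+Itga6+ cells and at 2.33 in remaining basal cells. Sox9, a transcription factor of the outer root sheath and bulge, overlapped as well, with 5.49, 6.26 and 4.29 against 5.83, 5.68 and 5.47. Nfatc1, a factor of bulge quiescence, averaged 4.27 and 4.72 (adjusted p = 0.46). A p that misses the threshold does not show these levels to be equal.

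Of 17 transcription factors known from bulge cells, 9 fell and none rose. Lhx2, a LIM homeobox factor of follicle stem cells, stood at 5.68, 5.88 and 5.46 against 8.24, 8.25 and 8.75, or 6.68-fold lower; it remained well over the silent level in Gata6+Itga6− cells. Tfap2b fell by 11.2-fold and Nfib, which bulge cells use to restrain melanocyte neighbours, by 3.63-fold. Tcf7l2, a nuclear partner of beta-catenin also called Tcf4, fell by 3.76-fold, but was not called with the brightest probe set only (adjusted p = 0.0611).

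Genes of the basal layer and its anchorage fell together. Of 20 interfollicular basal genes 14 were lower and none higher, and of 32 genes of hemidesmosomes and the basement membrane 16 were lower and none higher, with a median log2 change of −0.79 for the second list. Itgb1, the beta 1 chain of most basal integrins, stood at 3.62, 3.94 and 2.66 against 7.12, 7.53 and 7.71, or 16.5-fold lower. Col17a1, a collagen that spans the membrane at hemidesmosomes, had 4.20, 4.60 and 3.80 against 6.52, 7.52 and 6.93, or 6.92-fold lower. Itgb4, the partner of integrin alpha 6, fell by 5.34-fold. Of these 3, each Gata6+Itga6− array lay under each CD34+ array, while Itga6 itself was not called. The laminin chain Lamb3 was at least 6.73-fold, the alpha 2 integrin Itga2 at least 5.29-fold and nephronectin, Npnt, a ligand that anchors muscle to the bulge, at least 5.70-fold lower.

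The basal keratins moved by unequal amounts. Krt5 stood at 6.72, 6.96 and 6.34 against 9.29, 9.58 and 9.53, or 6.94-fold lower. Its partner Krt14 had 8.55, 8.68 and 8.58 against 8.96, 9.07 and 9.27, which is 1.41-fold lower (adjusted p = 0.027). Both had replicates that did not overlap, but the call of Krt14 ended without CD34+ replicate 2 or 3 or any 1 of the 3 Gata6+Itga6− arrays (adjusted p from 0.0519 to 0.0999). The metallothioneins Mt2 and Mt1, which bind zinc and copper, fell by at least 20.1-fold and by 16.3-fold.

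Of 40 matrix and matricellular genes 13 fell and 1 rose. Besides Postn, Sparc, a collagen-binding protein, had 1.61, 2.10 and 2.26 against 8.44, 8.74 and 8.67, at least 73.1-fold lower. Egfl6, a matrix protein that bulge cells lay down for sensory nerve endings, was at least 32.4-fold lower. Ccn1 fell by at least 12.0-fold and thrombospondin 1, Thbs1, by at least 5.65-fold. Abi3bp, the member that rose, was 18.5-fold higher (6.90 ± 0.037 against 2.70 ± 0.26). Over all 43 measured genes whose symbols start with Col and a number, 11 were lower (25.6%, against 4.74% of all genes) and none higher. Among them Col12a1 was at least 15.4-fold lower, with 1.73 ± 0.091 against 6.37 ± 0.42.

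**Figure D3:**
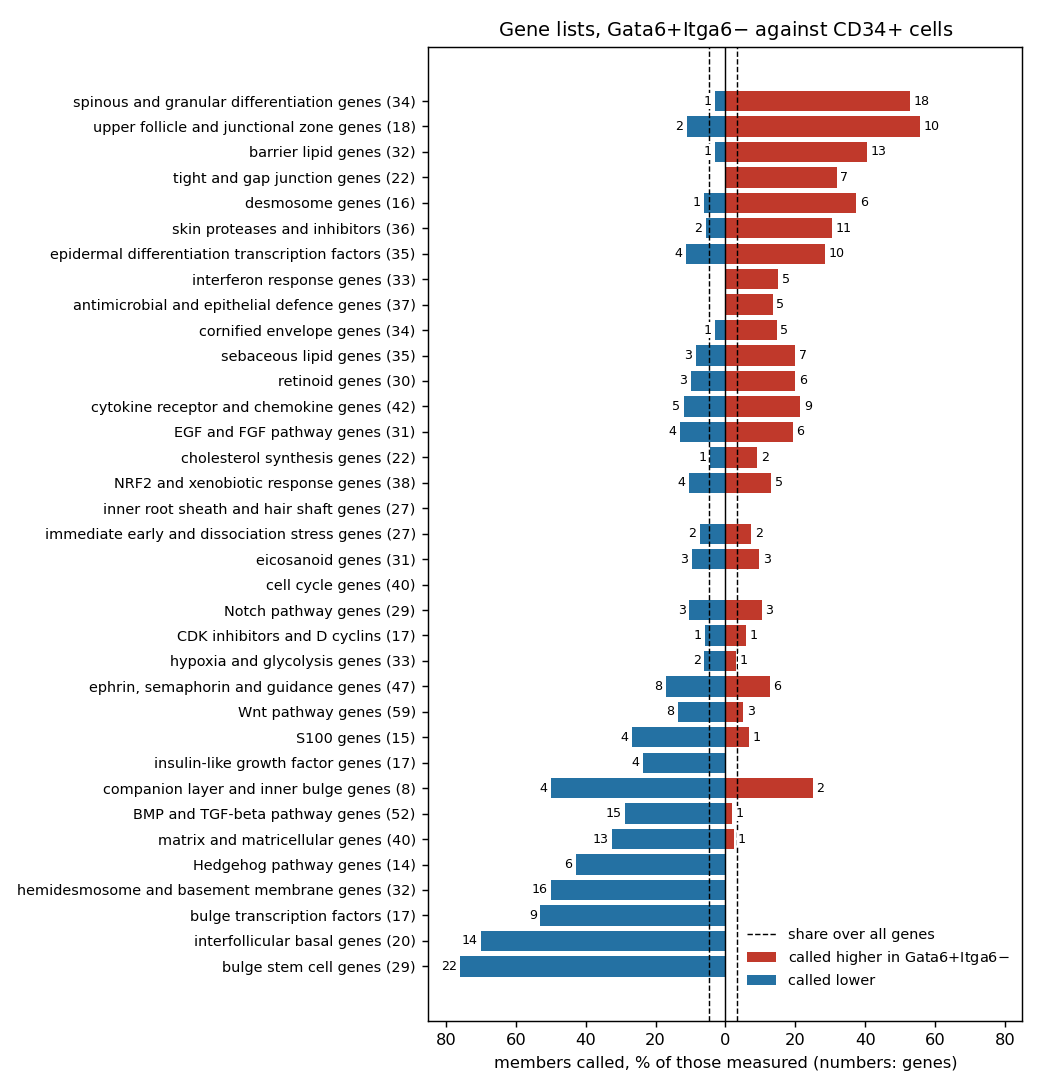
Share of the measured members of each gene list (number in brackets) that was called higher (red, to the right) or lower (blue, to the left) in Gata6+Itga6− cells relative to CD34+ cells, with gene counts at the bar ends. Dashed lines mark the shares over all genes, 3.22% higher and 4.74% lower. Bulge genes reach 22 lower of 29, and spinous and granular genes 18 higher of 34. The lists were chosen with earlier results of these data known.

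Wnt signals, which tell follicle stem cells to start growth, are tuned by secreted inhibitors and by receptors. Of 59 Wnt pathway genes 8 fell and 3 rose, or 18.6%, against 7.96% called of all genes and 15.3% of those over the silent level. Sfrp1, a secreted Wnt antagonist, stood at 2.95, 1.97 and 1.71 against 8.62, 8.61 and 8.80, at least 76.2-fold lower. Dkk3, of the Dickkopf family, was at least 3.47-fold lower, and of the receptors for R-spondin, Lgr4 fell by 2.72-fold beside Lgr5. Genes that the pathway is known to induce did not move one way. Axin2 was 1.90-fold higher (4.21, 4.91 and 4.20 against 3.68, 3.45 and 3.43) and Apcdd1 3.38-fold (4.50, 5.08 and 3.34 against 2.56, 2.82 and 2.26). Neither overlapped between the populations. Nkd1, a feedback inhibitor, was at least 1.37-fold lower (2.03 ± 0.12 against 2.87 ± 0.32), and Lef1, Notum, Rnf43 and Znrf3 were not called. Nkd1 was not called with the brightest probe set only (adjusted p = 0.801) or in a fit of only the 6 arrays (0.0522). The call of Axin2 ended without CD34+ replicate 2 or 3 or Gata6+Itga6− replicate 2 (adjusted p from 0.0781 to 0.0941), and that of Apcdd1 without any 1 array other than Gata6+Itga6− replicate 3 (0.0503 to 0.0986). With the brightest probe set only, Axin2, Dkk3, Lgr4 and Lgr5 were not called. In all, Axin2 lost its call under 8 and Apcdd1 under 7 of 16 alternatives. For both genes these included a larger constant added to the intensities and a fit of only the 6 arrays. None of 19 measured Wnt ligand genes was called.

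BMP signals hold bulge cells at rest. Of 52 genes of the BMP and TGF-beta pathways 15 fell and 1 rose. Among secreted antagonists, Grem1 had 1.90, 2.09 and 2.34 against 5.81, 5.69 and 7.01, at least 13.4-fold lower. The latent TGF-beta binding proteins Ltbp4 and Ltbp3 fell by 4.79-fold and 2.29-fold and Ltbp1 by at least 4.44-fold. The Id genes, direct targets of BMP signals, fell: Id3 by at least 5.24-fold, Id1 by at least 4.55-fold and Id2 by 4.29-fold. The ligand gene Bmp7 was the exception, 5.39-fold higher, with 5.66, 5.98 and 6.08 against 3.10, 3.67 and 3.65. The call of Id2 ended without CD34+ replicate 3 or Gata6+Itga6− replicate 1 or 3 (adjusted p from 0.0633 to 0.0658), and those of Ltbp1 and Ltbp3 with the brightest probe set only (0.956 and 0.339).

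In the Notch pathway, through which neighbouring cells set each other's fate, 3 of 29 measured genes rose and 3 fell. This is 20.7%, against 7.96% called of all genes and 15.3% of those over the silent level. The ligand Jag1 stood at 3.97, 3.62 and 3.51 against 6.44, 6.19 and 6.54, or 6.46-fold lower. The receptor Notch2 had 4.04, 4.69 and 4.62 against 3.14, 3.21 and 3.33, or 2.34-fold higher, and Notch3 was 2.16-fold higher. Notch1 was not called (4.11 against 3.38 on average, adjusted p = 0.096). Notch2 and Notch3 were not called with the brightest probe set only (0.645 and 0.679).

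Hedgehog pathway genes fell in 6 of 14 measured members and rose in none. The co-receptors Cdon and Boc, which help cells bind the ligand, fell by 6.64-fold and 5.42-fold. Gli2, a transcription factor of the pathway, had 2.22, 2.37 and 1.80 against 4.18, 4.62 and 4.90, at least 4.41-fold lower. Gli3 was at least 3.26-fold lower and the target gene Gli1 at least 1.86-fold. With the brightest probe set only, Boc, Gli1, Gli2 and Gli3 were not called (adjusted p from 0.167 to 0.988), and Gli1 and Gli2 changed sign.

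Of 31 genes of the EGF and FGF pathways, which control growth and survival of keratinocytes, 6 rose and 4 fell. Called members made up 32.3% of the list, against 7.96% of all genes. Among the FGF receptors, Fgfr1 was 9.35-fold lower (2.90 ± 0.023 against 6.12 ± 0.48) and Fgfr2 at least 4.39-fold lower, while Fgfr3 and Fgfr4 were not called. The EGF family receptors Erbb3 and Erbb2 were 7.85-fold and 3.26-fold higher; Erbb3 had 5.65, 5.74 and 6.17 against 2.89, 2.16 and 3.58. Egfr itself was not called (4.82 against 6.01 on average, adjusted p = 0.0569), nor was Erbb4. Fgf18, a ligand made by inner bulge cells, fell by 5.74-fold, but Gata6+Itga6− arrays spread from 1.54 to 4.40. Without CD34+ replicate 2 or 3 Fgf18 was not called (adjusted p = 0.0603 and 0.0682).

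Guidance molecules first known from growing nerves, which also act between epithelial cells, gave 6 higher and 8 lower of 47 measured genes. Called members made up 29.8% of the list, against 7.96% of all genes. Sema3e, a secreted semaphorin, was 15.3-fold lower, and Plxna2, a semaphorin receptor, 7.94-fold. Epha4, an ephrin receptor, was 4.06-fold, Slit3, a secreted ligand, 4.28-fold and Sema4g, a membrane semaphorin, at least 4.42-fold higher.

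**Figure D4:**
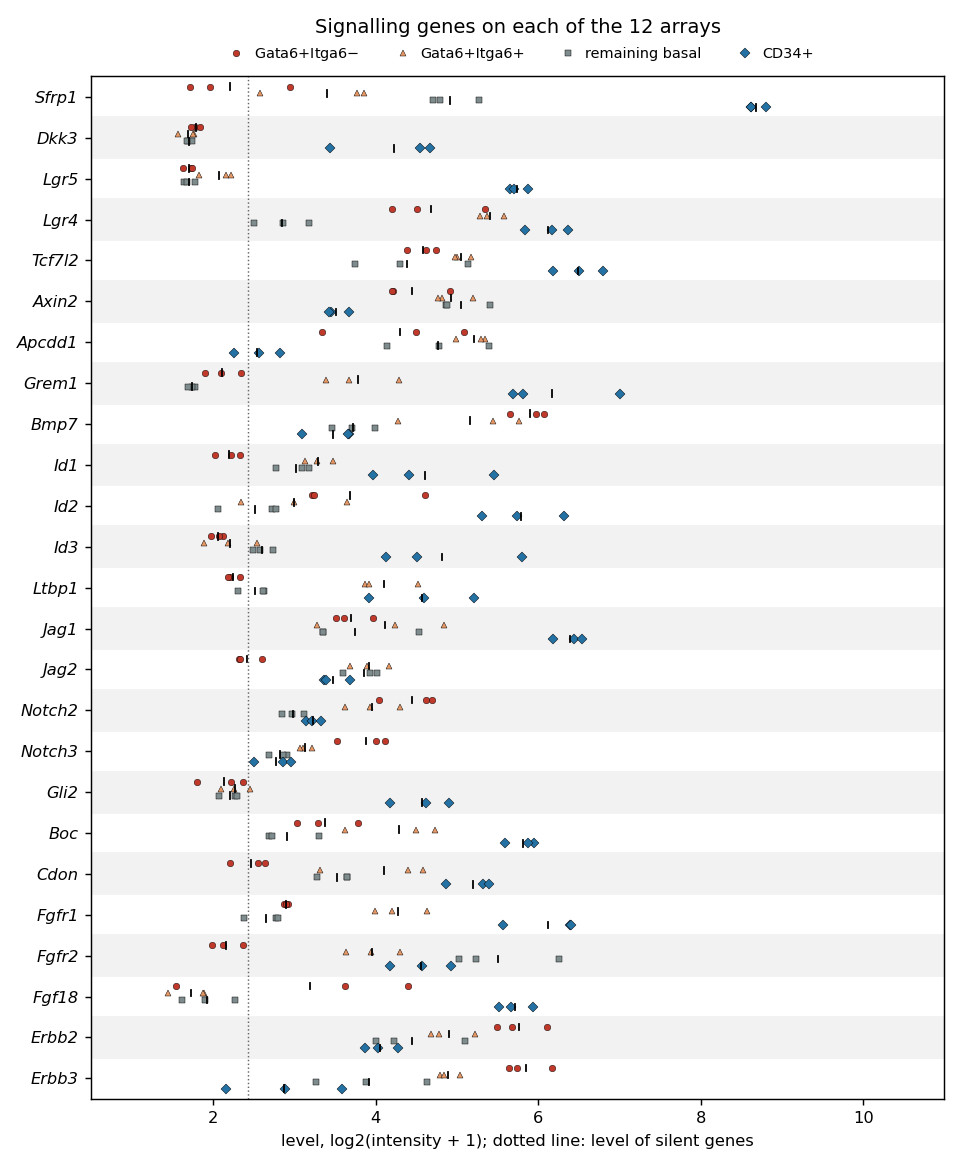
Log2(intensity + 1) of 25 signalling genes on each of the 12 arrays (points, by population), with means as bars and the silent level of 2.42 as a dotted line. Sfrp1, Lgr5 and Grem1 are high on the CD34+ arrays and near or under the silent level on the Gata6+Itga6− arrays, while Bmp7, Erbb2 and Erbb3 are higher on the Gata6+Itga6− arrays.

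Genes of defence rose in 5 of 37 measured members and fell in none. That is 13.5%, against 7.96% called of all genes and 15.3% of those over the silent level. Besides Defb6 and Sprr1a, Pglyrp4, a peptidoglycan recognition protein that binds bacterial wall, was at least 15.4-fold higher (6.37 ± 0.84 against 1.83 ± 0.052), and the beta-defensin Defb1 at least 6.08-fold. Of 42 cytokine receptors and chemokines 9 rose and 5 fell (33.3% called). Il18r1, a chain of the interleukin 18 receptor, was at least 4.81-fold higher. Il22ra1, the chain through which keratinocytes sense interleukin 22, had 7.01, 7.36 and 7.62 against 3.16, 3.75 and 5.81, an 8.51-fold difference. Its call ended without CD34+ replicate 1 or 2 or Gata6+Itga6− replicate 2 or 3 (adjusted p from 0.0526 to 0.0642). Cxcl14, an epidermal chemokine, was at least 5.70-fold lower.

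Of 33 interferon response genes 5 rose and none fell: B2m, Tap1, H2-K1, Psmb8 and Psmb9, which act in the display of peptides on MHC class I. These 5 are 15.2% of the list, against 7.96% called of all genes and 15.3% of those over the silent level. Their folds ran from 1.55 for B2m to 3.53 for Psmb9. Leaving out any 1 of the 6 arrays ended the call of 1 or more of them, with adjusted p up to 0.117 for B2m, and without CD34+ replicate 1 none of the 5 was called (0.0607 for Psmb9).

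Genes that handle retinoids, lipid-soluble signals that shape differentiation, rose in 6 and fell in 3 of 30 measured members. Called members made up 30% of the list, against 7.96% of all genes. Crabp2, which carries retinoic acid to the nucleus, stood at 8.48, 8.86 and 8.86 against 2.63, 3.32 and 2.83, or 55.9-fold higher. Crabp1, its relative that favours breakdown of retinoic acid, was at least 2.79-fold lower. The dehydrogenases Sdr16c6 and Sdr16c5, which can oxidise retinol, were at least 6.66-fold and 6.86-fold higher. Cyp26b1, which degrades retinoic acid, was at least 1.85-fold lower. Crabp1 and Cyp26b1 were not called with the brightest probe set only (adjusted p = 0.287 and 0.0832), and Crabp1 changed sign.

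Of 38 genes of xenobiotic response 5 rose and 4 fell. Cyp2b19, a cytochrome P450 of differentiating keratinocytes, was at least 18.3-fold higher (6.61 ± 0.38 against 2.07 ± 0.21), Ptgr1, a prostaglandin reductase, 20.4-fold and Ahr, the aryl hydrocarbon receptor, 9.03-fold. Cbr2, a carbonyl reductase, was at least 18.2-fold lower. Enzymes of eicosanoid synthesis moved in opposite directions: Ptgs1 was at least 4.17-fold higher, Ptgs2 at least 2.72-fold lower and the phospholipase Pla2g4a 8.57-fold lower. Of 35 sebaceous lipid genes 7 rose and 3 fell. They included the acyl-CoA ligases Acsl1 and Acsl4, 8.56-fold and 8.29-fold higher.

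Among S100 genes 4 of 15 fell and 1 rose. S100a6 fell by 10.1-fold and S100a10 by 12.1-fold, whereas S100a14 was 3.90-fold higher. Igfbp3 and Igfbp7, which bind insulin-like growth factors, were at least 10.3-fold and at least 6.27-fold lower, among 4 of 17 genes of this pathway that fell. Igfbp7 was not called with the brightest probe set only (adjusted p = 0.348). Of immediate early genes, which digestion of tissue can induce, 2 of 27 rose and 2 fell. That is 14.8% called, against 7.96% of all genes and 15.3% of those over the silent level in either population. Egr2, which also acts in follicle formation, had 8.68, 8.98 and 8.68 against 3.08, 4.73 and 3.96, or 29.0-fold higher. Egr1 was 2.44-fold higher, a call that ended without any 1 array other than Gata6+Itga6− replicate 3 (0.0616 to 0.138).

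Markers of other cell types were read beside these results, and their part in them was not tested. Of 17 dermal fibroblast markers 6 fell in Gata6+Itga6− cells: Sparc, Col6a1, Col6a2, Col5a2, Fbln1 and Col1a2. The summed intensity of the whole list was 55.1 to 58.3 on Gata6+Itga6− arrays and 456 to 547 on CD34+ arrays, and without Sparc, the brightest member, 51.8 to 56.2 against 110 to 137. On average 1 of the 17 lay over the silent level in Gata6+Itga6− cells and 8 in CD34+ cells. Among fibrillar collagens, Col1a1 averaged 2.41 against 2.83 and was not called, Col1a2 2.20 against 2.89 and Col3a1 1.76 against 1.82. Dcn, Lum and Pdgfra were under the silent level in both populations. Col5a2 and Col1a2 were not called with the brightest probe set only (adjusted p = 0.326 and 0.843). Of 15 sebocyte markers 2 rose, Krt79 and Acsbg1, with sums of 759 to 883 against 64.2 to 92.7. Without Krt79 these were 71.1 to 118 against 59.2 to 87.6, which overlap. Of 16 markers of Langerhans cells and macrophages only Epcam rose, with sums of 159 to 176 against 59.7 to 74.2 and, without Epcam, of 54.3 to 65.2 against 41.5 to 60.8, while Cd207 and Ptprc lay under the silent level in both populations. Epcam was not called with the brightest probe set only (0.0647).

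Of 11 melanocyte markers Mitf fell by 4.43-fold and Kit rose with both means under the silent level. Sums were 38.3 to 46.8 against 83.1 to 89.1, and without Mitf 28.8 to 30.7 against 29.7 to 32.6. The call of Kit ended without CD34+ replicate 1 or 3 or Gata6+Itga6− replicate 3 (adjusted p from 0.0577 to 0.0666), and Kit changed sign with the brightest probe set only. Of 8 Merkel cell markers only Cck fell, by at least 9.49-fold, with sums of 22.2 to 23.0 against 41.7 to 114, and without Cck of 19.3 to 20.5 against 19.2 to 20.8. Of 13 endothelial markers only Ramp2 fell, a call that ended without any 1 array other than CD34+ replicate 1 (adjusted p from 0.0847 to 0.136), with sums of 33.8 to 41.3 against 37.6 to 41.4. By limma none of 11 T cell markers and none of 12 markers of muscle, fat and red cells was called, each list with 2 genes at an unadjusted p under 0.05. Of 27 genes of inner root sheath and hair shaft none was called, and 3 had an unadjusted p under 0.05. Over the silent level in 1 or both populations lay 4 of the 11 T cell markers, 8 of the 12 and 8 of the 27.

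The 2 populations that the comparison left out show where the called genes lay in other cells. On a scale with the CD34+ mean at 0 and the Gata6+Itga6− mean at 1, Gata6+Itga6+ cells had a median position of 0.55 on the 574 higher genes and remaining basal cells 0.16. On the 847 lower genes the medians were 0.63 and 0.77. Of the higher genes, 245 (42.7%) had both other populations nearer to CD34+ cells and 183 (31.9%) had only Gata6+Itga6+ cells nearer to Gata6+Itga6− cells. Of the lower genes, 463 (54.7%) had both other populations nearer to Gata6+Itga6− cells and 185 (21.8%) had both nearer to CD34+ cells.

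Named genes show both kinds of pattern. Ivl averaged 2.81 in Gata6+Itga6+ cells and 1.51 in remaining basal cells, nearer to CD34+ than to Gata6+Itga6− cells. Krt79 had 8.19, 7.85 and 7.68 on the Gata6+Itga6+ arrays and 3.44, 2.57 and 3.35 on those of remaining basal cells. Among lower genes, Lgr5, Krt24 and Il31ra were under the silent level on average in Gata6+Itga6+, Gata6+Itga6− and remaining basal cells alike. Krt5, Itgb1, Col17a1 and Mt2 instead were high in all 3 populations sorted for Itga6; Krt5 averaged 9.17 in Gata6+Itga6+, 9.54 in remaining basal and 9.47 in CD34+ cells. Cdkn1a stood at 7.01 in Gata6+Itga6+ cells and 6.22 in remaining basal cells, so its low level of 2.61 was that of CD34+ cells.

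The difference of Gata6+Itga6+ from remaining basal cells uses none of the 6 arrays and can be set beside the comparison. It had the same direction in 476 (82.9%) of the higher and 303 (35.8%) of the lower genes, against 48.9% of all genes and 47.6% of those over the silent level. The median log2 change of Gata6+Itga6+ minus remaining basal cells was 0.039 over all genes and 0.23 over those above the silent level. It was 0.43 over the higher and 0.13 over the lower genes. The shares over all genes pool both directions, so they do not allow for this shift, which favours a rise over a fall. For higher and lower genes in that order, the shares were 72.2% and 47.2% if arrays were quantile normalized again, and 69.0% and 51.1% if the fit held array brightness.

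**Figure D5:**
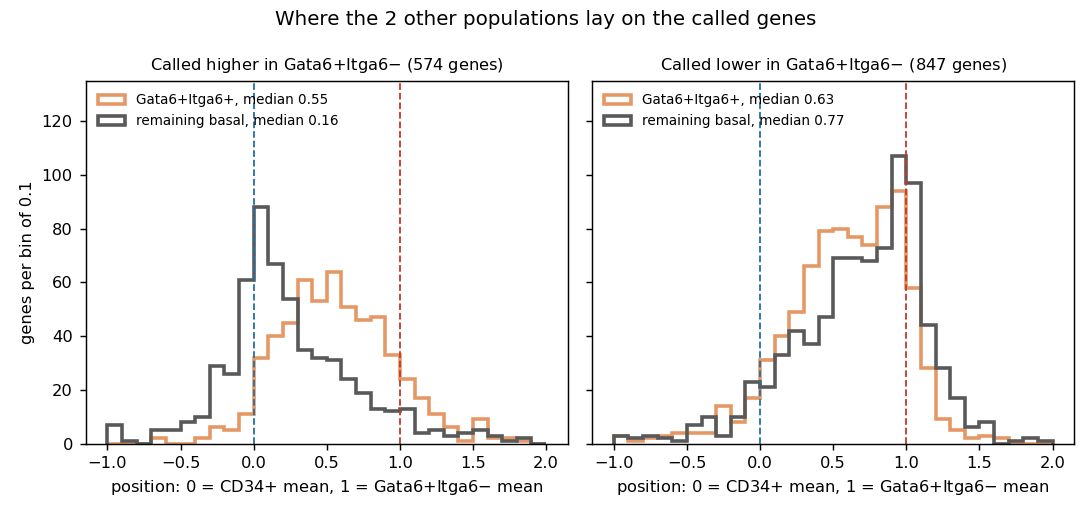
Histograms, in bins of 0.1, of the position of Gata6+Itga6+ (orange) and remaining basal cells (grey) between CD34+ cells at 0 and Gata6+Itga6− cells at 1, for the 574 higher genes (left) and 847 lower genes (right); positions beyond the plotted range are drawn at its ends. On the higher genes remaining basal cells peak near 0 with a median of 0.16, and on the lower genes both populations lie nearer to 1.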

How the data were processed

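The 12 arrays are Affymetrix mouse exon arrays, and RNA was amplified before labelling, per the labels' protocols. The deposited intensities are 1 value for each of 235932 probe sets, which the authors made with RMA in Affymetrix Power Tools on mm9, per the submitters' processing notes; versions are not stated. RMA sets background and scale across arrays, which reduces shifts shared by most genes. The scale was read as linear from the values (array medians of 3.97 to 4.57 and maxima from 2172 up to 2953); log2 values are the usual output of RMA, so every log2 level and fold rests on this reading. The number of arrays limits the precision.

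Probe sets with 1 gene symbol (221205; 1684 had several and 13043 none) were used, with symbols brought up to date (15377 current, 2489 updated, 42 kept). A gene's level was the median over its probe sets of log2(intensity + 1), for 17853 genes. The added 1 shrinks folds of dim genes. The silent level was the 95th percentile over 1144 receptor genes of smell (olfactory and vomeronasal). A model in limma 3.58.1 (R 4.3.3) gave each population its mean, with all 12 arrays sharing the estimate of spread, and p-values were adjusted by Benjamini-Hochberg over all genes, with calls under 0.05. An exact permutation test of 3 against 3 cannot go below 0.1 and was not used. On simulated data for this comparison, with 17853 genes, log2 changes of 0.5, 1, 2 and 3 were put into 50 genes per size. Of them 12%, 64%, 86% and 100% were recovered, with 11 false calls. Values were drawn from a normal distribution, independently for each gene, around its mean over the 12 arrays and with its own spread. Differences in array brightness and links between genes were not simulated, so these figures do not give the error rate of the real data.

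The comparison and the gene lists were chosen with earlier results of these data known. Single genes named are the sort genes, the 12 largest higher and lower called genes, the called list members with the smallest adjusted p and set anchors such as Krt5 and Lgr5; Skint and Ly6 genes, Krt23, Krt77, Krtdap, Itgb1, Itgb4, Acsl5, Id1, Id2, Ltbp3, Ltbp4, Bmp7, Lgr4, Axin2, Apcdd1, Erbb2, Nkd1, Col12a1, Col17a1, Ehf, Prdm1, Nfib, Elovl4, Sptlc3, Tgm1, Ccn1, Thbs1, Ocln, St14, Klk5, Npnt, Cd200, Sox9, Nfatc1, Flg2, Sbsn, Plpp3 and the Hox genes were chosen after their values were seen. Promoters come from RefSeq (GRCm38.p6) and were matched by gene. No mm9 coordinates are given. Alternatives changed normalization, added constant, summary of probe sets, filter, arrays, covariates and blocks. Genes given beside these as not called come from the same lists, and marker sums without a list's brightest member were added after the values were seen.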

Additional observations from a re-analysis of the deposited data

How the results depend on the processing

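Of 244 genes looked at singly, 220 were called, 136 of them under all 16 alternatives; 36 lost the call with a left-out array and 64 with the brightest probe set only, a setting that called 1163 genes, 663 of them among the 1421. Averaging probe sets rather than taking their median called 2159 genes, 1305 of them lower. Leaving out each of the 6 arrays in turn gave 1056 to 1237 called genes, 427 to 516 higher and 564 to 809 lower. Fewer arrays leave fewer degrees of freedom, and no other cause was tested. The labels do not say whether a replicate number marks a shared mouse or day, and the numbers were not used to pair samples. Deviations of same-numbered arrays correlated at 0.117, 0.00304 and −0.0745, and those of differently numbered arrays at −0.168 to 0.159. With so few arrays these values cannot show whether the samples were paired. The order of letters in the array names differed from the numbers for CD34+ replicates 1 and 2. With the replicate number as a block 1388 genes were called, 578 higher and 810 lower, and with the array letter as a block 1372.

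With the brightest probe set only, log2 changes took the other sign for Lgr5 (0.43), Gli2 (0.029), Ltbp2 (0.45), Jag2 (0.19), Gli1 (0.41), Crabp1 (0.49), Ramp2 (0.060), Nog (0.18), Pglyrp3 (−0.010), Faah (−0.51), Kit (−0.31), Prdm1 (−0.38) and Elovl4 (−0.059), and for genes not called either way, Ly6a (0.053), Cd200 (0.12), Notch1 (−0.044), Dcn (−0.037) and Cd207 (−0.28); the cause was not tested. Dcn was at −0.00753 with the mean of probe sets and Cd200 at 0.066 after quantile normalization. With array brightness as a covariate Ly6a was at 0.20, Cd200 at 0.091 and Sox9 at 0.015. Over the left-out arrays Ly6a ran from −0.36 to 0.29, Cd200 from −0.18 to 0.17, Sox9 from −0.78 to 0.21 and Col3a1 from −0.14 to 0.045, none of them called as reported.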

Other observations

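Skint genes, which encode membrane proteins of the immunoglobulin family made by keratinocytes and thymic epithelium, were higher in Gata6+Itga6− cells in 6 of 10 measured members and lower in none. That is 60%, where 3.22% of all genes rose, and the families named here were chosen after their values were seen. Skint9 was at least 23.5-fold higher (6.98 ± 0.26 against 1.55 ± 0.29, SD, n = 3), Skint4 at least 9.42-fold and Skint10 at least 8.30-fold. The CD34+ means of all 6 lay under the silent level, and Skint3 stood at 4.39 in Gata6+Itga6+ cells, against its 4.71 in Gata6+Itga6− cells. Of 14 measured genes with symbols starting with Ly6, which encode small membrane-anchored proteins, 4 were higher (28.6%) and none lower. Ly6g6c averaged 10.32 against 5.32 and Ly6d 8.17 against 3.26. Both families hold near-identical copies, so probes can respond to more than 1 member. Krt23, a keratin of type I, was at least 17.6-fold higher, with 6.56 ± 0.20 against 1.55 ± 0.19, whereas the Gata6+Itga6+ mean was 2.22 and that of remaining basal cells 1.58. The acyl-CoA ligase Acsl5 was 8.23-fold higher, so that 3 of 5 measured Acsl genes rose.

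Of 38 measured genes with symbols starting with Hox, a cluster letter and a number, 6 fell from CD34+ to Gata6+Itga6− cells and none rose. They are mostly homeobox factors that hold positional identity along the body. That is 15.8% called, against 7.96% of all genes and 15.3% of those over the silent level in either population. The family was chosen from several symbol families after their values were seen. The log2 changes were −2.22 for Hoxd8, −1.82 for Hoxa7, −1.58 for Hoxc6, −1.35 for Hoxa2, −0.50 for Hoxd3 and −0.41 for Hoxd9 (limma, all at an adjusted p under 0.05), and both means of Hoxd3 and of Hoxd9 lay under the silent level. Over all 38 the median log2 change was −0.12. Leaving out 1 array kept only Hoxc6 called each time. The count was then 5 without CD34+ replicate 1, 3 without CD34+ replicate 2 or Gata6+Itga6− replicate 2, and 2 without any 1 of the other arrays. The 3 without Gata6+Itga6− replicate 2 include Hoxaas2, which is not among the 38. It was 10 with the mean of probe sets and 2 in a fit of only the 6 arrays, and under each alternative the called ones were lower in Gata6+Itga6− cells.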
